A study of Xenopus laevis with 27 samples.

Results

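The genes described here encode the nuclear subunits of the mitochondrial respiratory chain and of the ATP synthase, measured in Xenopus laevis (African clawed frog) tails after amputation. They were chosen by symbol: every gene of the count table whose name begins with nduf, uqcr, atp5 or cox followed by a digit from 4 to 8, and the L and S copies of sdha, sdhb, sdhc, sdhd and cyc1. This gave 134 genes of 29776 in the table, with 82 symbols, 71 L copies and 63 S copies. Xenopus laevis is allotetraploid, and L and S name the copies of a gene on its long and short subgenomes. By complex there were 56 genes of complex I, 7 assembly factors of complex I, 7 genes of complex II, 13 of complex III, 23 of complex IV and 28 of the ATP synthase, also called complex V.

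The respiratory chain passes electrons from NADH (complex I) and from succinate (complex II) through ubiquinone, complex III and cytochrome c to oxygen at complex IV. Complexes I, III and IV pump protons across the inner mitochondrial membrane, and the ATP synthase uses their return to make ATP. Most subunits are encoded in the nucleus and imported, while a few core subunits are encoded in mitochondrial DNA. Skeletal muscle and other tissues with a high demand for ATP hold many mitochondria, so the level of these transcripts in a whole tail depends on which cells the tail holds as well as on each cell.

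RNA was measured by bulk sequencing in tails cut at the start and collected straight away (0 mpa, minutes after the cut), after 30, 60 or 90 minutes, after 3 or 6 hours (hpa), and after 1, 3 or 7 days (dpa). Each time had 3 libraries, A to C, and each library was made from total RNA of 20 embryos at the regenerative stage. All samples carry the treatment label amputated, the labels give no genotype, strain or further agent for any group, and the 0 mpa tails were the baseline. The triplicates are called biological, but no clutch is named for any library, and the p-values cover only how these libraries varied, which may be technical in part. All comparisons with 0 mpa share the same 3 baseline libraries. The 27 libraries include no uncut tails of the later ages. Time after the cut and growth of the larvae can therefore not be told apart in any of these comparisons.

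Total counts were 4186706 to 6332675 in 24 libraries. The shallow ones were 7 dpa C with 19187, 90 mpa C with 367958 and 6 hpa C with 1207557. In 7 dpa C 1 read corresponds to 17.3 CPM (counts per 1000000 reads after TMM scaling), the genes described here had 206 reads in all, and 86 of the 133 tested genes had none, so values from it are coarse. At full depth, 1 dpa B and 3 dpa B had reads for 17532 and 19983 genes of the table, against 21302 to 25790 in the other deep libraries. Counts of called genes are therefore also given without 5 libraries: the 3 shallow ones and the B libraries of 1 and 3 dpa. The tissue label was tail, and skeletal muscle transcripts were abundant in it, as given further on.

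Of the 134 genes, 133 passed the filter on low counts and were tested. The exception was cox6a2.L, a form of complex IV subunit VIa that is specific to heart and skeletal muscle in mammals, which had 11 reads in 4 libraries. The table also holds 4 rows for mitochondrially encoded genes (mt-COX1, mt-COX2, mt-COX3 and mt-CYTB), but these had 10 reads in all 27 libraries, so no level of the mitochondrially encoded subunits could be given.

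Transcripts of the respiratory chain and ATP synthase were lower at 3 and 7 dpa than at 0 mpa in every complex. The summed level of the 133 genes was 24074, 28496 and 26144 CPM in 0 mpa A, B and C. It was 19447, 20197 and 19273 CPM at 1 dpa, 11591, 15704 and 13088 CPM at 3 dpa, and 8654, 8692 and 3571 CPM at 7 dpa. The ranges of these 4 times did not overlap. In the first 6 hours single libraries lay below and above the baseline, and the highest sums of all were those of 6 hpa C (33924 CPM) and 90 mpa C (31918 CPM). Both libraries are shallow, and some abundant genes stood more than 2-fold above the other libraries of the time, as given further on. The median log2 level of the 133 genes relative to 0 mpa was -0.68 in 6 hpa C and -1.29 in 90 mpa C.

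**Figure D1:**
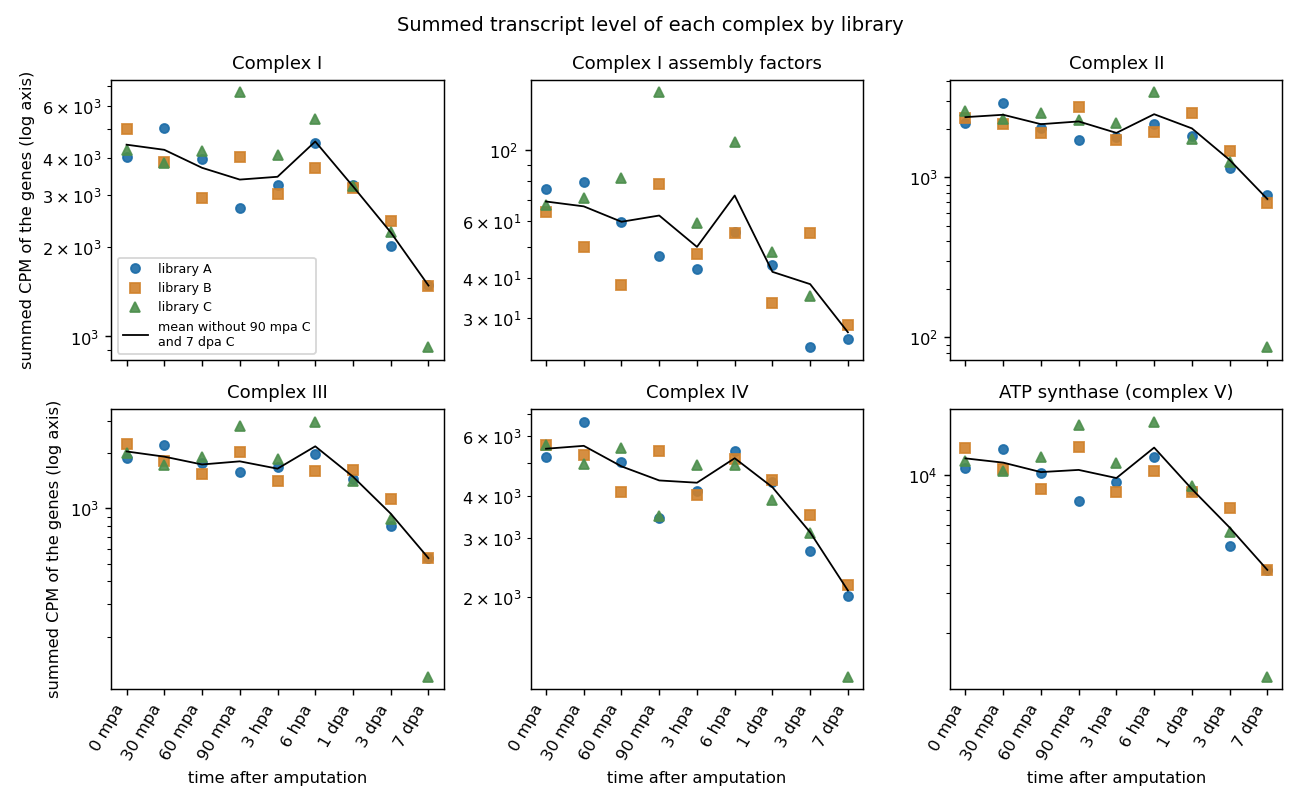
Summed level (CPM, log axis) of the genes of each complex in each library over the 9 times; symbols are the libraries A to C and the line is the mean without 90 mpa C and 7 dpa C. All complexes lie lower at 3 dpa and 7 dpa than at 0 mpa, and the assembly factors of 7 dpa C had no read and are not drawn on the log axis.

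Gene by gene, the edgeR quasi-likelihood test called 39 of the 133 genes lower at 3 dpa and 76 lower at 7 dpa at an adjusted p under 0.05, with 35 genes called at both times and 80 at either. Among all 22268 genes tested, 4.98% were called lower at 3 dpa and 5.31% at 7 dpa, against 29.3% and 57.1% of the genes described here. The median fitted log2 fold change was -1.22 at 3 dpa and -1.64 at 7 dpa, where the medians over all genes were 0.05 and -0.01. At 3 dpa 130 of the 133 fitted changes were negative, and at 7 dpa 131. In 101 genes all 3 libraries of 3 dpa lay below all 3 of 0 mpa (13.9% of all genes did), and in 120 genes 7 dpa A and B did (19.2% of all genes).

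Without the 5 shallow or low-complexity libraries 95 genes were called lower at 3 dpa and 100 at 7 dpa, and these included all 39 and all 76 of the calls above. The shares over all genes rose as well in that fit, to 7.88% and 8.49%. The count at 3 dpa moved when single libraries were left out: it was 17 without 0 mpa B and 25 without 3 dpa B. The fit that called 95 genes also leaves out 3 dpa B. The count at 7 dpa was 48 without 7 dpa A. Shares over all genes are not given for these fits without 1 library, so the counts alone describe the fits. No gene was called higher than 0 mpa at any of the 8 times. Over all genes the shares called higher, in the order of the 8 times, were 0.377%, 1.15%, 2.62%, 3.12%, 3.33%, 2.99%, 4.24% and 2.63%. In the joint test over the 9 times 66 of the 133 genes changed, against 15.8% of all genes.

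**Figure D2:**
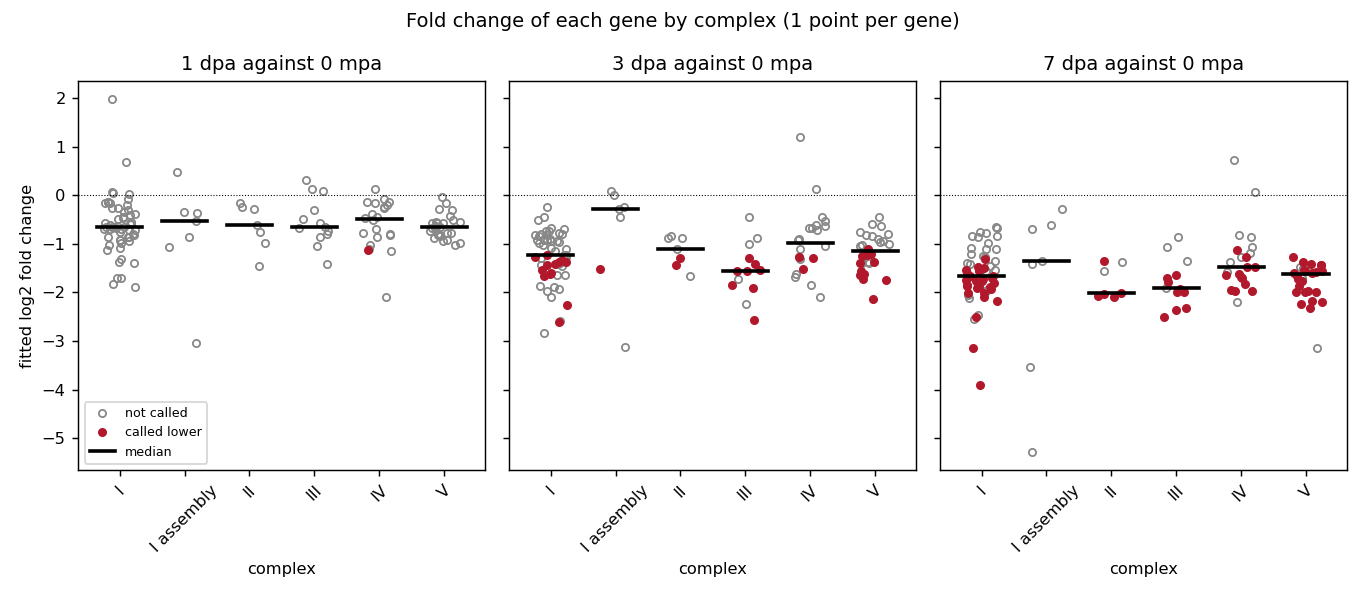
Fitted log2 fold change against 0 mpa of each gene (1 point per gene) by complex at 1, 3 and 7 dpa, with filled points for genes called lower and bars for medians. Most points lie below 0 at all 3 times, 1 gene is called at 1 dpa, and 39 and 76 are called at 3 and 7 dpa.

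Muscle transcripts were lower in the same libraries too. Of 56 tested genes of the skeletal muscle list 42 were called lower and 1 higher at 3 dpa (median log2 fold change -2.55), and 42 lower and 0 higher at 7 dpa (-3.92). Their summed level was 154908 to 257429 CPM at 0 mpa, 23897 to 40638 CPM at 3 dpa and 7697 to 10860 CPM at 7 dpa. The summed level of the respiratory genes per unit of summed muscle level was 0.111 to 0.155 at 0 mpa, 0.373 to 0.485 at 3 dpa and 0.464 to 0.882 at 7 dpa. In these bulk samples, fewer cells of a type and less RNA per cell cannot be told apart, and the part of muscle cell number in the results that follow was not tested.

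Complex I, the entry point of electrons from NADH and the largest complex of the chain, had 13 of 56 genes called lower at 3 dpa and 27 at 7 dpa (35 and 39 without the 5 libraries). All 56 fitted changes were negative at both times, with medians of -1.23 and -1.66. Its summed level was 4044 to 5012 CPM at 0 mpa, 2026 to 2452 CPM at 3 dpa and 1484 to 1488 CPM in 7 dpa A and B.

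Of the arm of complex I that faces the matrix, the module that oxidises NADH had 3 of 10 genes called lower at 3 dpa and 5 at 7 dpa, and the module that passes electrons to ubiquinone had 3 of 14 and 9. The gene ndufs8.L, which encodes an iron-sulfur subunit next to the ubiquinone site, stood at 45.7, 60.0 and 38.6 CPM in 0 mpa A, B and C. It stood at 12.45, 9.76 and 7.85 CPM at 3 dpa, and at 14.1, 13.9 and 0 CPM at 7 dpa. All libraries of 3 dpa and the deep libraries of 7 dpa lay below the baseline. The fitted log2 fold change was -2.26 ± 0.46 (SE, adjusted p = 0.000398) at 3 dpa and -1.84 ± 0.50 (adjusted p = 0.011) at 7 dpa.

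The accessory subunit ndufs4.S, whose loss causes complex I deficiency in humans, was at 9.37, 15.9 and 11.01 CPM at 0 mpa and at 0.999, 1.74 and 0 CPM at 7 dpa. Libraries 7 dpa A and B were lower. In 7 dpa C 1 read corresponds to 17.3 CPM, above each baseline value, so its 0 cannot show a lower level. The fitted log2 fold change was -3.14 ± 0.82 (adjusted p = 0.0069), but the adjusted p was above 0.05 without 7 dpa A or without 7 dpa B. At 3 dpa its libraries read 1.71, 16.2 and 3.34 CPM, so 3 dpa B overlapped the baseline. Another accessory subunit of this arm, ndufa6.S, was at 12.98, 12.61 and 11.01 CPM at 0 mpa and at 2.18, 1.95 and 1.77 CPM at 3 dpa. Its log2 fold change there was -2.61 ± 0.88 (adjusted p = 0.0479), a call lost without any single library of either time.

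The membrane arm of complex I, which carries the proton pumps, had 7 of 30 genes called lower at 3 dpa and 12 at 7 dpa. The accessory subunit ndufb6.S went from 31.5, 49.9 and 31.7 CPM at 0 mpa to 10.9, 6.24 and 18.6 CPM at 3 dpa and 13.7, 10.9 and 0 CPM at 7 dpa. All libraries of 3 dpa and the deep libraries of 7 dpa lay below the baseline. The log2 fold changes were -1.66 ± 0.45 (adjusted p = 0.00929) at 3 dpa and -1.67 ± 0.50 (adjusted p = 0.0223) at 7 dpa. Without 0 mpa B or without 3 dpa B the call at 3 dpa was lost.

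The gene ndufab1 encodes the mitochondrial acyl carrier protein, which serves in fatty acid synthesis as well as in complex I. Its L copy was at 357, 480 and 497 CPM at 0 mpa, 149, 438 and 180 CPM at 3 dpa, and 114, 134 and 69.3 CPM at 7 dpa. At 3 dpa library B reached into the baseline range and the gene was not called (log2 fold change -0.80 ± 0.56), while without the 5 libraries the change was -1.42 with an adjusted p of 1.63e-05. At 7 dpa it was called (-1.94 ± 0.60, adjusted p = 0.0441), a call lost without any single library of either time.

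Assembly factors of complex I help to build it and are not part of it. Of 7 tested, 1 was called lower at 3 dpa (14.3%) and 0 at 7 dpa, against 4.98% and 5.31% of all genes. Without the 5 libraries 3 and 2 were called, where 7.88% and 8.49% of all genes were called lower. With 7 genes such shares are coarse. Fitted changes were negative in 6 of the 7 at 3 dpa and in all 7 at 7 dpa (medians -0.28 and -1.36). The called gene, ndufaf6.L, was at 33.9, 18.9 and 24.0 CPM at 0 mpa and 5.76, 11.7 and 9.22 CPM at 3 dpa (log2 fold change -1.53 ± 0.51, adjusted p = 0.0444). Leaving out any library of these times except 3 dpa B ended that call. Summed, the 7 factors reached only 64.3 to 75.7 CPM at 0 mpa, so few reads stand behind each of them.

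Complex II, succinate dehydrogenase, joins the citric acid cycle to the chain and is the only complex with no mitochondrially encoded subunit. Of its 7 genes 2 were called lower at 3 dpa and 5 at 7 dpa (6 and 7 without the 5 libraries), and its medians were -1.11 and -2.01. The catalytic genes, sdha for the flavoprotein and sdhb for the iron-sulfur protein, were all called at 7 dpa, with log2 fold changes between -2.09 and -2.01 for the 4 copies. The membrane anchors sdhc and sdhd had 1 of 3 genes called at 7 dpa, sdhc.S.

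The L copy of sdhb was at 909, 943 and 1009 CPM at 0 mpa, 466, 581 and 506 CPM at 3 dpa, and 291, 257 and 34.7 CPM at 7 dpa. Its S copy was at 983, 1057 and 1333 CPM, then 549, 738 and 589 CPM, then 365, 321 and 52.0 CPM. In both copies 3 dpa lay wholly below 0 mpa, and 7 dpa wholly below 3 dpa. Neither passed at 3 dpa (adjusted p = 0.125 for L and 0.147 for S), whereas without the 5 libraries both did (0.000407 and 0.00108), and at 7 dpa the changes were -2.09 ± 0.38 and -2.01 ± 0.38 (adjusted p = 6.76e-05 and 0.000112).

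The gene for the flavoprotein was called at both times. Copy sdha.L was at 24.8, 41.6 and 25.7 CPM at 0 mpa, 9.18, 11.1 and 13.9 CPM at 3 dpa and 7.28, 7.69 and 0 CPM at 7 dpa. Copy sdha.S was at 40.9, 40.6 and 28.3 CPM, then 14.0, 21.5 and 9.62 CPM, then 10.3, 8.27 and 0 CPM. In both copies all libraries of 3 dpa and the deep libraries of 7 dpa lay below the baseline. The log2 fold changes at 3 dpa were -1.43 ± 0.43 (adjusted p = 0.0247) for L and -1.28 ± 0.41 (adjusted p = 0.0377) for S. Single libraries decided these calls: that of sdha.L was lost without 0 mpa B, 3 dpa A or 3 dpa B, and that of sdha.S without 0 mpa A, 0 mpa B, 3 dpa A or 3 dpa C. At 7 dpa both were called (adjusted p = 0.003 for L and 0.0024 for S), but sdha.L was not without 7 dpa A, nor sdha.S without 7 dpa B. The anchor sdhd.S fell short of the threshold at both times (-1.67 ± 0.58, adjusted p = 0.0636 at 3 dpa), with 42.1, 46.4 and 43.6 CPM at 0 mpa against 26.1, 5.07 and 10.01 CPM at 3 dpa. Without the 5 libraries sdhd.S was called lower at 3 dpa (adjusted p = 0.00896) and at 7 dpa (adjusted p = 0.00698).

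Complex III passes electrons from ubiquinol to cytochrome c. At 3 dpa 8 of its 13 genes were called lower, and 9 at 7 dpa (10 and 11 without the 5 libraries), with medians of -1.55 and -1.90. The core proteins uqcrc1 and uqcrc2, which hold the complex together on the matrix side, were called in 3 of 3 genes at both times. The subunits that carry electrons, cyc1 and uqcrfs1, were called in 3 of 4 genes at 3 dpa and 4 of 4 at 7 dpa, and the small subunits in 2 of 6 at each time.

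Cytochrome c1, encoded by cyc1, hands electrons to cytochrome c. Copy cyc1.S was at 787, 906 and 943 CPM at 0 mpa, 627, 939 and 577 CPM at 1 dpa, 390, 682 and 372 CPM at 3 dpa, and 185, 171 and 52.0 CPM at 7 dpa. Its log2 fold change at 7 dpa was -2.50 ± 0.41 (adjusted p = 8.75e-06), and at 3 dpa it was not called (adjusted p = 0.154; 1.2e-05 without the 5 libraries). It was also the only one of the 133 genes called lower from 3 dpa to 7 dpa (-1.63 ± 0.40, adjusted p = 0.0239). That is 0.752% of the 133 genes, near the 0.723% of all genes called lower in this step (0.849% in either direction). The count of this step was 0 without 3 dpa B and without each library of 7 dpa. Copy cyc1.L was at 301, 275 and 280 CPM at 0 mpa, 133, 94.0 and 124 CPM at 3 dpa and 77.7, 80.9 and 17.3 CPM at 7 dpa, and was called at both times (adjusted p = 0.00497 and 3.6e-05).

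Copy uqcrc2.S of the core protein was at 50.9, 48.7 and 32.4 CPM at 0 mpa and 10.1, 18.9 and 7.65 CPM at 3 dpa. The groups were apart and the log2 fold change was -1.85 ± 0.41 (adjusted p = 0.00138), called also without any single library of the 2 times. The hinge protein gene uqcrh.L, whose product binds cytochrome c1, was at 13.9, 14.1 and 9.50 CPM at 0 mpa and 0.311, 2.15 and 3.92 CPM at 3 dpa. It had the largest called fold of complex III at 3 dpa (-2.56 ± 0.70, adjusted p = 0.0114), at a low level and with the call lost without 3 dpa A. For uqcr10.S, another small subunit, the change was -1.90 ± 0.61 (adjusted p = 0.0347), lost without each library but 3 dpa C.

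Complex IV, cytochrome c oxidase, reduces oxygen. At 3 dpa 3 of its 22 tested genes were called lower and at 7 dpa 12 (16 and 16 without the 5 libraries), with medians of -0.99 and -1.47. It held the only gene called at 1 dpa, cox5a.S, where 1.58% of all genes were called lower. The subunit Va gene cox5a.S was at 608, 539 and 477 CPM at 0 mpa, 315, 183 and 248 CPM at 1 dpa, 266, 168 and 237 CPM at 3 dpa, and 144, 162 and 69.3 CPM at 7 dpa. All libraries of the 3 later times lay below the baseline, and the log2 fold change at 1 dpa was -1.12 ± 0.33 (adjusted p = 0.0334), lost without any of the 0 mpa libraries, 1 dpa B or 1 dpa C. It was also called at 3 dpa (-1.28 ± 0.33, adjusted p = 0.00688; 0.0639 without 3 dpa B) and at 7 dpa (-1.96 ± 0.35, adjusted p = 4.81e-05). Its L copy gave -1.29 ± 0.33 at 3 dpa and -1.71 ± 0.35 at 7 dpa, also called at both times; the call at 3 dpa was lost without 3 dpa B.

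Subunit VIb gene cox6b1.L was at 278, 378 and 249 CPM at 0 mpa, 130, 51.1 and 135 CPM at 3 dpa and 112, 113 and 0 CPM at 7 dpa. It was called at 3 dpa (log2 fold change -1.52 ± 0.40, adjusted p = 0.00761), though not without 0 mpa B or without 3 dpa B, and at 7 dpa (-1.63 ± 0.42, adjusted p = 0.00606). The subunit Vb gene cox5b.1.L overlapped with the baseline at 3 dpa, at 439, 798 and 582 CPM against 834, 742 and 1066 CPM, and was called at 7 dpa (-1.94 ± 0.40, adjusted p = 0.000401). The gene ndufa4 was first assigned to complex I and is now counted as a subunit of complex IV in mammals. Its copies had the smallest called changes of the complex at 7 dpa, -1.27 ± 0.38 for L and -1.13 ± 0.37 for S (adjusted p = 0.0233 and 0.0473). The call was lost without any of 4 single libraries for L (0 mpa B or C, 7 dpa A or C) and without any single library for S.

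Subunit IV has tissue forms. In mammals COX4I1 is the form found in most tissues and COX4I2 a form of lung and some other cells that is linked to low oxygen. Copy cox4i2.S was at 46.9, 57.2 and 62.6 CPM at 0 mpa, 39.0, 43.3 and 37.8 CPM at 1 dpa, 62.4, 62.6 and 57.7 CPM at 3 dpa, and 62.4, 68.3 and 0 CPM at 7 dpa. At 1 dpa it lay below the baseline, while 3 dpa and the deep libraries of 7 dpa lay within or just above it, and its log2 fold change was 0.13 ± 0.35 (adjusted p = 0.89) at 3 dpa and 0.07 ± 0.37 (adjusted p = 0.969) at 7 dpa. The L copy, with at most 2.16 CPM in the libraries of these 4 times, was not called either. These 2 copies were the only ones of the 133 genes with a fitted change above 0 at 7 dpa. The difference between cox4i2 and the other genes was not tested. Copy cox4i1.S was at 29.1, 37.3 and 19.6 CPM at 0 mpa and 5.60, 7.41 and 13.7 CPM at 3 dpa, apart from the baseline but not called (-1.69 ± 0.65, adjusted p = 0.102; 0.0085 without the 5 libraries).

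**Figure D3:**
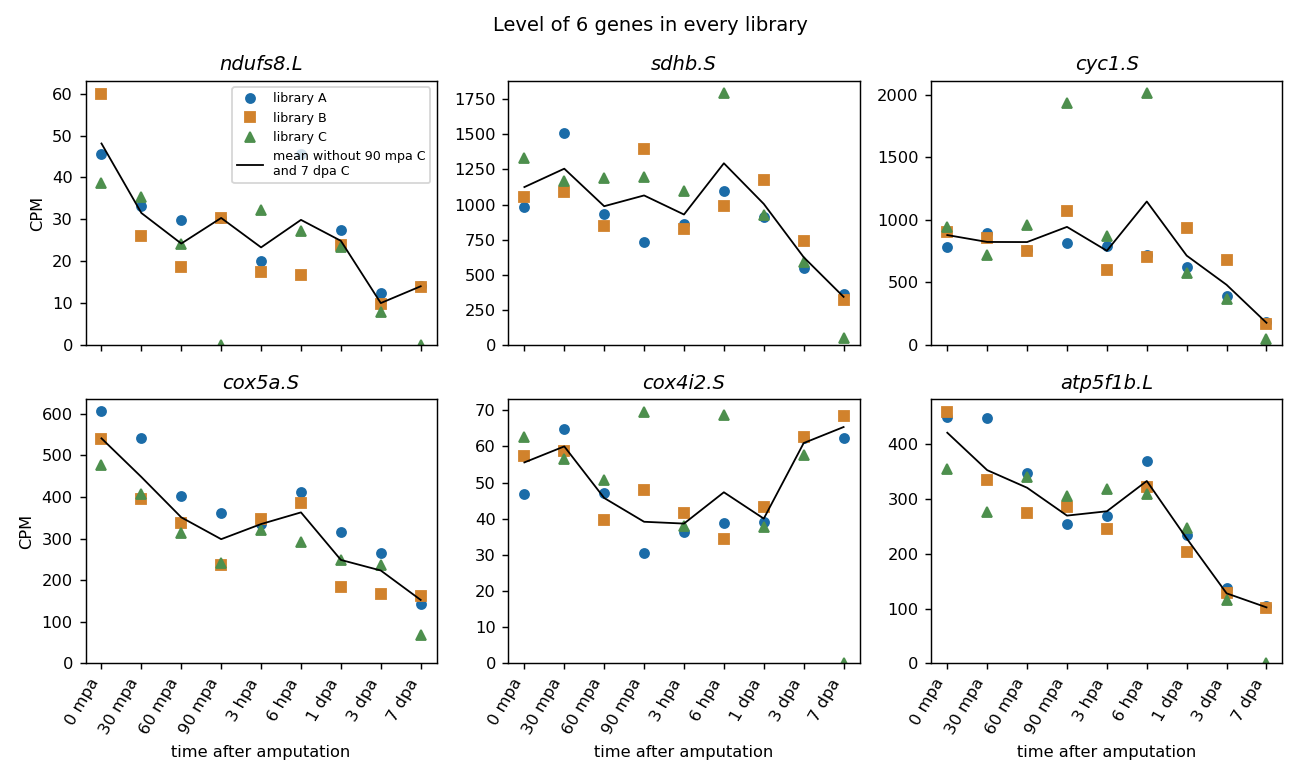
Level (CPM) of 6 genes in every library over the 9 times; symbols are the libraries A to C and the line is the mean without 90 mpa C and 7 dpa C. For ndufs8.L, sdhb.S, cyc1.S, cox5a.S and atp5f1b.L all libraries of 3 and 7 dpa lie below those of 0 mpa, while cox4i2.S at 3 dpa (57.7 to 62.6 CPM) lies within or near its range at 0 mpa.

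The ATP synthase had the largest share of called genes at 7 dpa, 23 of 28, after 12 at 3 dpa (25 and 25 without the 5 libraries). Its medians were -1.15 and -1.63, and its summed level was 10687 to 13187 CPM at 0 mpa, 4850 to 7119 CPM at 3 dpa and 3813 and 3787 CPM in 7 dpa A and B. It had 15 of the 41 genes with a mean of at least 100 CPM, and complex I had 10. Across the 133 genes, 39 of the 41 with a mean of at least 100 CPM were called at 7 dpa, against 3 of the 30 under 10 CPM, while the medians of these classes were -1.76 and -1.63. No difference between complexes was tested.

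The catalytic head of the enzyme, F1, had 5 of 8 genes called at 3 dpa and all 8 at 7 dpa. Its beta subunit, which holds the catalytic sites, is encoded by atp5f1b. Copy atp5f1b.L was at 448, 458 and 354 CPM at 0 mpa, 234, 203 and 246 CPM at 1 dpa, 138, 129 and 116 CPM at 3 dpa, and 104, 100.5 and 0 CPM at 7 dpa. Each of these times lay wholly below the one before it. The log2 fold change was -1.72 ± 0.35 at 3 dpa (adjusted p = 0.000313) and -2.24 ± 0.37 at 7 dpa (adjusted p = 9.18e-06), called also without any single library. Copy atp5f1b.S, with the most reads of the pair, was at 2843, 3644 and 3057 CPM at 0 mpa, 1211, 1556 and 1384 CPM at 3 dpa and 921, 963 and 503 CPM at 7 dpa. It was called at 3 dpa (-1.20 ± 0.34, adjusted p = 0.0143) and 7 dpa (-1.96 ± 0.35, adjusted p = 3.93e-05), the first lost without 0 mpa B, 3 dpa A or 3 dpa C.

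The c-ring turns with the flow of protons. None of its 4 genes was called at 3 dpa and all 4 were at 7 dpa. Copy atp5mc3.L was at 1297, 1384 and 1596 CPM at 0 mpa, 612, 1673 and 849 CPM at 3 dpa and 528, 556 and 312 CPM at 7 dpa. Library 3 dpa B lay above the baseline, and without the 5 libraries the change at 3 dpa was called (adjusted p = 0.00565). At 7 dpa it was -1.56 ± 0.43 (adjusted p = 0.0119; 0.138 without 7 dpa C).

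The peripheral stalk, which keeps the head from turning, had 4 of 8 genes called at 3 dpa and 7 of 8 at 7 dpa. Copy atp5po.L, for the subunit that confers sensitivity to oligomycin, was at 212, 294 and 240 CPM at 0 mpa, 72.2, 57.0 and 93.6 CPM at 3 dpa and 68.4, 72.4 and 0 CPM at 7 dpa. The groups were apart and the changes were -1.74 ± 0.38 (adjusted p = 0.00107) and -1.98 ± 0.41 (adjusted p = 0.00047). Of the small membrane subunits 3 of 6 were called at 3 dpa and 4 of 6 at 7 dpa. Of these, atp5me.S changed by -2.14 ± 0.55 at 3 dpa (adjusted p = 0.00598; 0.0506 without 3 dpa B) and atp5mf.S by -2.32 ± 0.61 at 7 dpa (adjusted p = 0.00918), the latter lost without 0 mpa B or 7 dpa A.

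The inhibitor of the ATP synthase, atp5if1, binds the head when the proton gradient collapses and stops it from splitting ATP. Its copies were low throughout and neither was called at 3 or 7 dpa in the fit of all libraries. Without the 5 libraries atp5if1.S was called lower at 3 dpa (log2 fold change -2.09, adjusted p = 0.0434) and not at 7 dpa (adjusted p = 0.114). Copy atp5if1.S was at 5.77, 8.82 and 8.85 CPM at 0 mpa, 2.02, 5.27 and 1.57 CPM at 3 dpa and 2.85, 2.03 and 0 CPM at 7 dpa. Copy atp5if1.L was uneven at the baseline (9.85, 3.53 and 0.432 CPM) and had no read in any library of 90 mpa, against 57 reads at 0 mpa. Against a floor of 3 reads over the group it was at least 14.9-fold lower at 90 mpa (adjusted p = 0.0298). Library 0 mpa A held 41 of the 57 reads, and without it the bound was 6.195-fold and the gene was not called (adjusted p = 0.147).

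**Figure D4:**
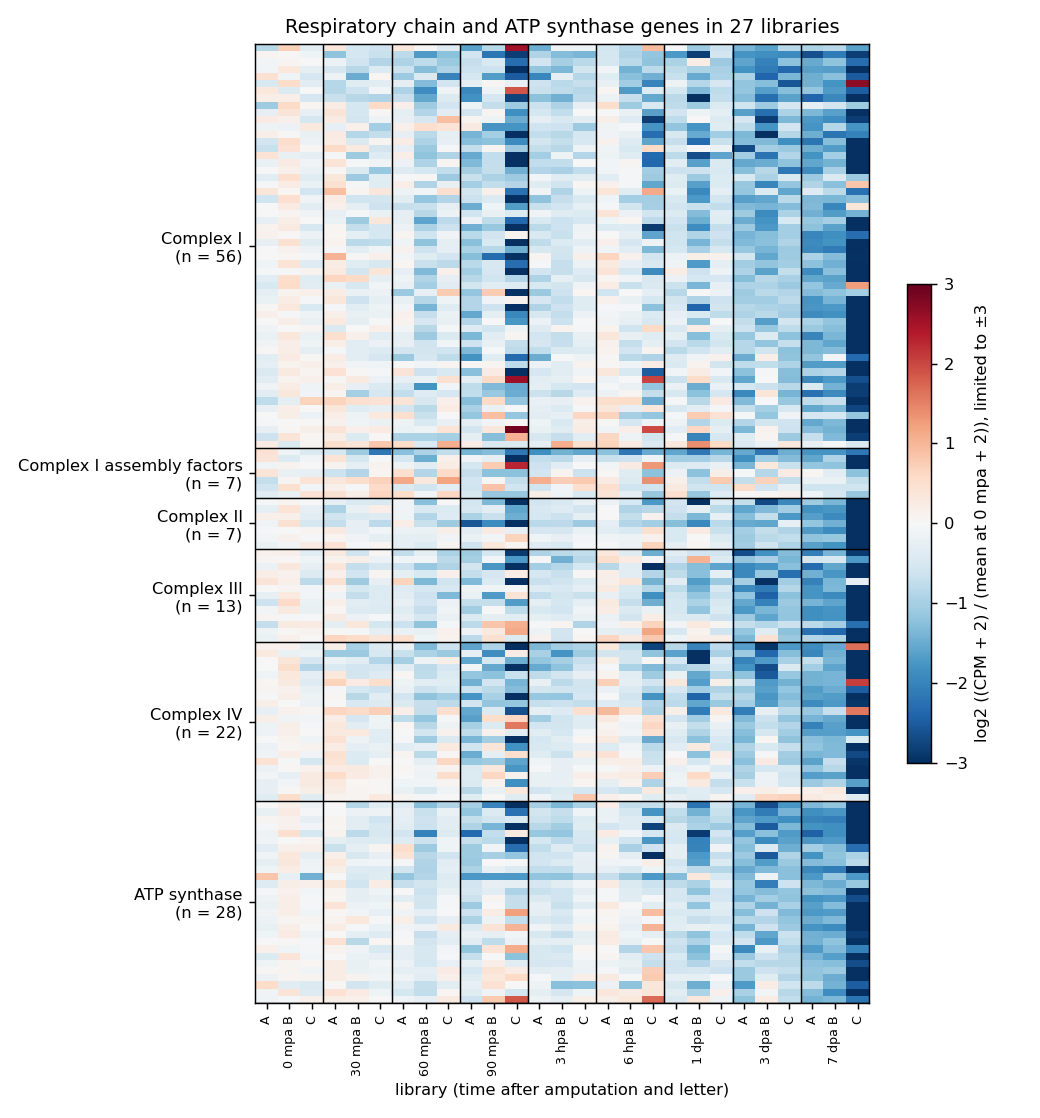
Level of each of the 133 tested genes (rows, by complex and within it by the change at 3 dpa) in each of the 27 libraries (columns), as log2 of the ratio to the mean at 0 mpa with a pseudocount of 2 CPM, limited to 3 in either direction. Blue is lower than 0 mpa; 3 dpa and 7 dpa are blue in most rows, while 90 mpa C has no read in 35 of the rows and 7 dpa C in 86.

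Within the first day few genes passed the test although most fitted changes were negative. No gene was called at 30 mpa, 60 mpa, 3 hpa or 6 hpa by edgeR in the fit of all 27 libraries, and DESeq2 called 0 at each of these 4 times as well. Of all genes 0%, 0.00449%, 0.31% and 0.328% were called lower there. An unadjusted p under 0.05 was reached by 0, 2, 7 and 3 of the 133 genes, against 3.70%, 6.98%, 11.5% and 13.5% of all genes. Other edgeR fits did call genes, all of them lower. Without the 5 libraries 10 were called at 3 hpa and 2 at 60 mpa, where 2.15% and 0.432% of all genes were called lower, and 0 at 30 mpa and 6 hpa (0.0561% and 1.51%). With only the libraries compared 24 were called at 3 hpa and 1 at 60 mpa (4.44% and 0.43% of all genes). Among the 10 at 3 hpa were cox5a.S (log2 fold change -0.68, adjusted p = 0.00892) and ndufs8.L (-1.03, adjusted p = 0.0226). The medians were -0.11, -0.35, -0.49 and -0.25, with 113 negative changes at 60 mpa and 127 at 3 hpa. At 3 hpa 52 of the 133 genes had all 3 libraries below all 3 of 0 mpa (12.1% of all genes). The 130 tested genes of ribosomal proteins of the cytosol had medians of -0.27 at 60 mpa, -0.44 at 3 hpa and -0.08 at 6 hpa, and muscle genes -0.51, -0.75 and -0.80. The part of either in the early values was not tested. Scaling the libraries by the RLE method moved the median log2 fold change of all genes from 0.01, -0.02, -0.02 and -0.01 at 60 mpa, 3 hpa, 6 hpa and 1 dpa to -0.09, -0.12, -0.16 and -0.13, so early differences of that size depend on the scaling.

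At 90 mpa 6 genes were called lower, where 0.754% of all genes were. They were ndufa11.L of complex I, the anchor sdhd.L, both copies of cox6a1, the stalk gene atp5pf.S and the inhibitor atp5if1.L, and all 6 are named because they are the whole count. The median over the 133 genes was -0.58 at 90 mpa, with 113 negative changes. An unadjusted p under 0.05 was reached by 40 of them, 36 lower and 4 higher, against 17.2% of all genes. Copy cox6a1.L was at 205, 244 and 192 CPM at 0 mpa and 61.6, 108 and 18.1 CPM at 90 mpa (log2 fold change -1.65 ± 0.45, adjusted p = 0.0281). The anchor sdhd.L was at 20.2, 31.0 and 14.5 CPM and then at 2.00, 4.46 and 0 CPM (-2.88 ± 0.64, adjusted p = 0.00273). The groups of both genes were apart, but the count fell to 2 without 0 mpa A or 0 mpa B and to 3 without 0 mpa C or 90 mpa C. It was 1 in a fit of the 6 libraries alone (0.0635% of all genes lower) and 21 without the 5 libraries (2.87%).

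At 1 dpa the median was -0.64, 123 of 133 changes were negative and 1 gene was called. Without the 5 libraries 6 were called, where 3.33% of all genes were called lower: both copies of cox5a, atp5f1b.L, atp5mc1.S, atp5pf.S and atp5po.L. The steps between neighbouring times held few calls. From 6 hpa to 1 dpa 0 genes were called, where 0.332% of all genes changed, up or down. An unadjusted p under 0.05 was reached in this step by 7 of the 133 genes, against 7.90% of all genes. From 1 to 3 dpa 0 genes were called as well (0.723% of all genes), and 19 reached an unadjusted p under 0.05, against 8.52% of all genes. Without the 5 libraries 0 were called from 6 hpa to 1 dpa (1.05% of all genes), 8 from 1 to 3 dpa (1.91%) and 4 from 3 to 7 dpa (1.52%). The medians of these steps were -0.42 and -0.58, and that from 3 to 7 dpa was -0.47.

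Both copies of a gene mostly had fitted changes of the same sign. Of 52 pairs with both copies tested, 51 had negative changes in both copies at 3 dpa and 51 at 7 dpa. Since 130 and 131 of the 133 genes had negative changes at these times, such counts were likely in advance. They say nothing further about the copies. The L copy gave 1.52 to 94.8% of a pair's reads (median 57.3%), with 31 pairs above 50%. The share was lowest in cox4i2 and highest in ndufa7, and it was 10.3% in atp5f1b and 22.9% in cyc1. Reads that match both copies may have been assigned to either, since the treatment of such reads is not given in the sources used here.

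In a test of the share of L over time, 0 of the 52 pairs were called in the joint test (1 with an unadjusted p under 0.05) and 0 at 1, 3 or 7 dpa (2, 3 and 2 unadjusted). Over all 5791 pairs 4.32% were called in the joint test, and 0.967%, 1.68% and 1.54% at the 3 later times. Unadjusted, 12.9% of all pairs passed jointly, and 9.55%, 12.9% and 8.67% at the 3 later times. Without the 5 libraries 3 pairs were called jointly, atp5pd, atp5f1a and cyc1, and atp5pd and atp5f1a also at 7 dpa, where 10% and 4.37% of all pairs were called. The share of atp5pd.L was 63.9, 68.6 and 66.5% at 0 mpa, 60.1, 54.6 and 57.4% at 3 dpa and 53.9 and 49.5% in 7 dpa A and B. That of atp5f1a.L was 63.5, 66.4 and 63.4% at 0 mpa and 55.0 and 57.6% in 7 dpa A and B. In both pairs the share of L was lower in 7 dpa A and B than in each library of 0 mpa. These pairs were picked by their calls, and the fit of all libraries called neither. The calls without the 5 libraries, 3 of 52 pairs jointly and 2 at 7 dpa, were no more frequent than over all pairs. The share of cyc1.L was 27.6, 23.3 and 22.9% at 0 mpa, 12.1% in 3 dpa B against 25.5 and 25.05% in 3 dpa A and C, and 29.6 and 32.1% in 7 dpa A and B.

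Other genes of mitochondrial energy metabolism were examined by lists. Of 30 genes of the citric acid cycle and pyruvate dehydrogenase, which feed the chain with NADH and succinate, 21 were called lower at 3 dpa and 23 at 7 dpa, with 0 higher (medians -1.39 and -1.94). Examples at 3 dpa were cs.L, citrate synthase (log2 fold change -1.89 ± 0.38, adjusted p = 0.000284), and pdhb.L, a subunit of pyruvate dehydrogenase (-2.01 ± 0.37, adjusted p = 9.34e-05). Of 18 genes for mitochondrial carriers, channels and cytochrome c 11 were lower and 1 higher at 3 dpa, and 15 and 1 at 7 dpa (medians -1.57 and -1.94). They included cycs.L, cytochrome c itself (-2.56 ± 0.52, adjusted p = 0.000673 at 3 dpa), and vdac1.S, the channel of the outer membrane (-2.95 ± 0.49, adjusted p = 1.26e-05 at 7 dpa).

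Genes that build mitochondria were examined next, beside 4.98% and 5.31% of all genes called lower at 3 and 7 dpa. Of 92 genes of the mitochondrial ribosome 6 were called lower at 3 dpa and 7 at 7 dpa, which is 6.52% and 7.61% (medians -0.85 and -0.90). Of 32 import and chaperone genes 6 and 3 were, 18.8% and 9.38% (-0.99 and -0.68). Assembly factors of the complexes outside the naming rule had 3 and 4 of 40 lower, 7.5% and 10% (-0.81 and -1.12), among them both copies of uqcc1, which helps to build complex III. No gene of these 3 lists was higher. The difference between these lists and the respiratory genes was not tested.

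Among 22 regulators of mitochondrial biogenesis 5 were lower and 1 higher at 3 dpa, and 7 lower and 0 higher at 7 dpa (medians -0.59 and -0.19). The lower ones included ppargc1a.S, a coactivator of mitochondrial genes (log2 fold change -3.09 ± 0.49 at 3 dpa, adjusted p = 5.48e-06), and its nuclear receptor partners esrra.L (-2.05 ± 0.35, adjusted p = 2.21e-05) and esrrg.L (-2.99 ± 0.68, adjusted p = 0.00154). In mammals these 3 are high in muscle and other oxidative tissues. A related coactivator, pprc1.L, was higher at 1 dpa (1.50 ± 0.36, adjusted p = 0.00483), at 101 CPM against 35.7 CPM at 0 mpa on average. It was the only 1 of the 22 regulators called higher at 1 dpa. Of all genes 2.99% were called higher at 1 dpa and 4.24% at 3 dpa, so 1 of 22 is close to the share over all genes.

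Of 42 glycolysis genes 19 were lower and 1 higher at 3 dpa, and 19 and 0 at 7 dpa (medians -1.21 and -1.52). Examples were pfkm.L (-3.77 ± 0.82 at 3 dpa, adjusted p = 0.00233), pgam2.L (-3.39 ± 0.39, adjusted p = 2.77e-09) and eno3.L (-5.78 ± 0.54 at 7 dpa, adjusted p = 1.49e-12), which are the muscle forms of these enzymes in mammals. Copy aldoc.L, which is not among these muscle forms, was also called lower at 3 dpa (-3.11 ± 0.35, adjusted p = 1.57e-09). How many of the lower glycolysis genes are muscle forms was not counted. The skeletal muscle list also holds pgam2 and eno3, so the counts of the muscle and glycolysis lists share genes. Of 20 genes of the hypoxia response 1 was lower at 3 dpa and at 7 dpa, epas1.S, and 0 were higher at these 2 times (medians -0.29 and -0.40). Of all genes 4.98% were called lower at 3 dpa and 5.31% at 7 dpa, so 1 of 20 is close to the share over all genes. Earlier, 2 of the 20 hypoxia genes were called higher at each of 60 mpa, 90 mpa and 3 hpa. At 6 hpa 3 were. Of the 42 glycolysis genes 3 were called higher at each of these times, and both lists had 0 lower. Over all genes 1.15%, 2.62%, 3.12% and 3.33% were called higher at 60 mpa, 90 mpa, 3 hpa and 6 hpa.

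**Figure D5:**
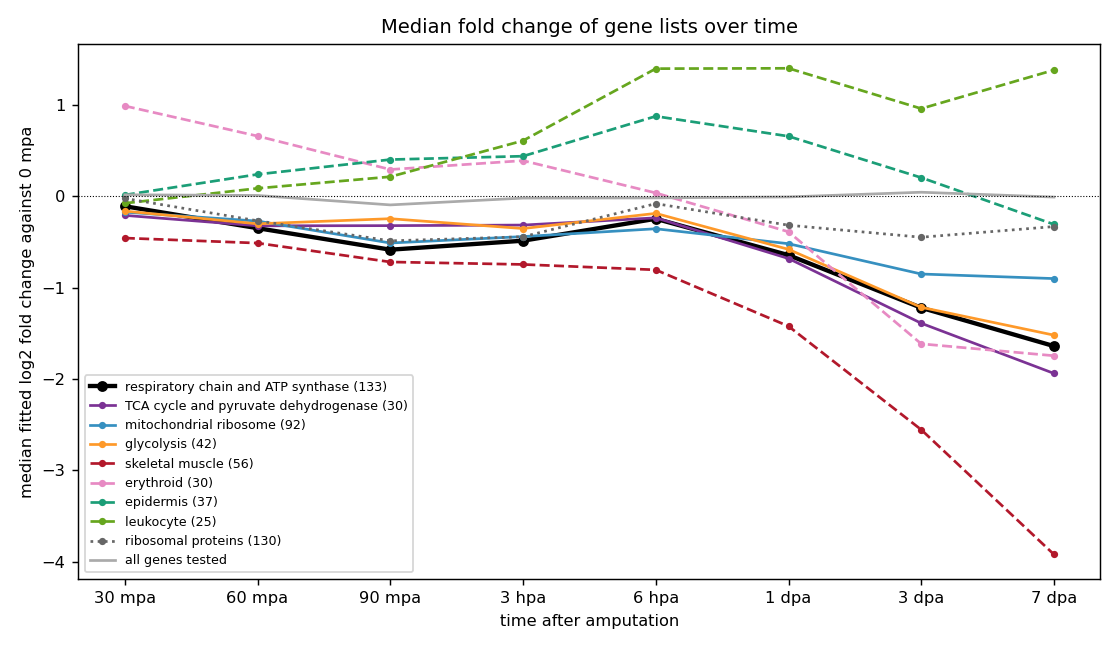
Median fitted log2 fold change against 0 mpa (vertical axis) of the respiratory chain and ATP synthase genes, 8 other lists and all genes tested, at each of the 8 later times; numbers in brackets are genes tested. The respiratory genes reach -1.22 at 3 dpa and -1.64 at 7 dpa, the muscle list -2.55 and -3.92, and the ribosomal proteins -0.45 and -0.33.

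Markers of other cell types were examined as well. Of all genes 4.98% were called lower and 4.24% higher at 3 dpa, and 5.31% and 2.63% at 7 dpa. Erythroid genes had 14 of 30 lower and 0 higher at 3 dpa, and 15 lower and 1 higher at 7 dpa (medians -1.61 and -1.74), with a summed level of 2101 to 8161 CPM at 0 mpa and 1273 to 2298 CPM at 3 dpa. Ionocytes, which are rich in mitochondria, and ciliated cells had 7 of 17 lower at 3 dpa and 6 at 7 dpa (medians -1.40 and -1.76), with summed levels of 1256 to 1709 CPM at 0 mpa and 1006 to 1601 CPM at 3 dpa. Leukocyte genes had 0 of 25 lower and 5 higher at 3 dpa, and 1 and 3 at 7 dpa, with a summed level of 296 to 384 CPM at 0 mpa and 768 to 1028 CPM at 3 dpa. Notochord and cartilage genes had 4 of 23 lower and 9 higher at 3 dpa, and 2 and 7 at 7 dpa. Neural genes had 5 of 33 lower and 3 higher at 3 dpa, and 7 and 2 at 7 dpa, and epidermal genes 1 of 37 lower and 3 higher, then 1 and 2. The share of epidermal genes called lower, 2.7% at each time, was below that of all genes. The part of any of these in the lower level of the respiratory genes was not tested.

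Respiratory genes differed from the other libraries of the same time in the libraries of low depth or complexity, in both directions. In library 90 mpa C, ndufab1.S was at 1997 CPM against a mean of 260 CPM in 90 mpa A and B, and atp5mc3.L at 5208 CPM against 1682 CPM. In 6 hpa C, ndufab1.L was at 1831 CPM against 418 CPM in 6 hpa A and B, and cyc1.S at 2011 CPM against 715 CPM. In 3 dpa B ndufab1.L was at 438 CPM against 165 CPM and atp5mc3.L at 1673 CPM against 730 CPM. Both copies of ndufab1 and atp5mc3.L were more than 2-fold above the other libraries in all 3, while 35 of the 133 genes had no read in 90 mpa C. Of the genes with at least 100 CPM in the other libraries of the time, 5 of 38 were more than 2-fold higher in 90 mpa C, 5 of 49 in 6 hpa C, 1 of 42 in 1 dpa B and 3 of 30 in 3 dpa B. Less than 0.5 times the level of the other libraries was seen in 4, 8, 4 and 1 of these genes, in the same order. In 7 dpa C none of 26 such genes was more than 2-fold higher and 20 were at less than 0.5 times the others, and 81 of the 107 other genes had no read. None of the genes more than 2-fold higher in 90 mpa C or 6 hpa C was called at that time. No respiratory gene was called higher at 90 mpa, and none was called at 6 hpa. The lack of such calls therefore cannot show that these libraries left the calls unchanged.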

How the data were processed

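Bulk RNA sequencing of 27 libraries was analysed, 3 at each of 9 times. Per the labels' protocols, 100 ng of total RNA went into a Lexogen SENSE Total RNA-Seq kit and was read as pairs of 76 bases on a NextSeq 500. R 4.1.0, DESeq2 1.32.0, HTSeq 0.6.1p1 and STAR 2.7.9a appear in the submitters' processing notes, which assign them no role. Build and strand setting were not given in the sources used, so no coordinates are given and overlapping or antisense genes cannot be told apart. The authors deposited counts per gene as whole numbers (27 libraries), which all tests use. They also deposited a normalized signal for 25 libraries. It equalled the count divided by 1 factor per library within 1e-06 and was not used further. That signal leaves out 90 mpa C and 7 dpa C, the shallowest libraries. Both were kept in the fit of all libraries. Some counts of called genes without this pair are given further on.

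Counts were tested with edgeR 4.0.16 in R 4.3.3 (quasi-likelihood, robust, TMM scaling, filterByExpr by group) in 1 fit of all libraries, which kept 22268 genes and dropped 7508. Benjamini-Hochberg adjustment ran over all genes of a comparison, and a gene is called where its adjusted p is under 0.05. The 8 later times were compared with 0 mpa, 3 steps with the time before, and all times jointly. Fitted log2 fold changes (edgeR's default prior count) are given with a standard error (SE). This SE was derived from the test, as the absolute log2 fold change divided by the square root of the quasi-likelihood F statistic. CPM are counts per 1000000 reads of the library total times its TMM factor; they are not per length, so levels of different genes are not compared. The share of the L copy was tested in edgeR with both copies as columns, an effect for each library and a copy-by-time effect, over 5791 pairs. The tests were checked on simulated counts that had the same spread for every gene and no library of low complexity. That check therefore does not cover the uneven libraries described above.

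The genes, lists and libraries left out were chosen with earlier results of these data known. Genes were named by rule: per complex the largest called changes at 1, 3 and 7 dpa of at least 5 CPM, both copies of sdha to sdhd and cyc1, tissue isoforms, the most abundant members and the pairs with the smallest p. Single examples outside that rule, and the subgroups by role within a complex, were chosen with the values in view. All 134 symbols matched the RefSeq table of assembly v10.1, used for names only. The planned search of promoters was not run, since no sequences were used here. Library letters were not taken to pair samples across times (median correlation of deviations 0.004 for the same letter and -0.003 for others). Alternatives were RLE scaling, no filter, DESeq2 1.42.0, a replicate block, fits of only the libraries compared, and fits with libraries left out. Intervals beyond the spread of libraries were not computed, and floors of 3 reads cover counting error only.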

Additional observations from a re-analysis of the deposited data

How the results depend on the processing

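The respiratory genes called lower against 0 mpa (6 at 90 mpa, 1 at 1 dpa, 39 at 3 dpa and 76 at 7 dpa) and the 1 from 3 to 7 dpa had a negative fitted change wherever they were tested under RLE scaling, no filter, DESeq2, only the libraries compared, a replicate block and libraries left out. These alternatives were not run for genes of the other lists. The genes were chosen by their calls in the fit of all libraries, and the alternatives reused many of the same libraries. A kept sign was therefore likely in advance. Counts of called genes moved more. The shares of all genes called lower moved too, so a changed count alone is not a result about the respiratory genes. Without the 5 libraries these shares went from 4.98% to 7.88% at 3 dpa and from 5.31% to 8.49% at 7 dpa. With only the libraries compared they went from 0.31% to 4.44% at 3 hpa and from 0.754% to 0.0635% at 90 mpa. For most other fits listed here the shares over all genes are not given. With the replicate block, 41 genes were called at 3 dpa, 77 at 7 dpa and 67 jointly. By the criterion used, a correlation over 0.1 in every pair, the letters were not taken to pair the samples: 8 of 108 same-letter pairs passed it and 7 of 216 others. Even so, 14 of 27 libraries correlated best with their own letter, which 8 of the 24 libraries of other times share. At 60 mpa the count of 0 became 2 when the 5 libraries of low depth or few genes were dropped and 1 with only the libraries compared. At 90 mpa the 6 calls became 10 (RLE), 14 (no filter, 12 lower and 2 higher), 12 (DESeq2), 3 (90 mpa C and 7 dpa C dropped), 21 (without the 5) and 1 (libraries compared), and 0 to 8 with libraries left out. At 3 hpa 0 became 10 (without the 5), 24 (libraries compared) and 0 to 1 (left out). At 1 dpa 1 became 3 (RLE), 0 (no filter), 8 (DESeq2), 7 (the same pair dropped), 6 (without the 5), 2 (libraries compared) and 0 to 7 (left out). At 3 dpa 39 became 60 (DESeq2), 72 (that pair dropped), 95 (without the 5), 77 (libraries compared) and 2 to 50 (left out), the lowest without all A libraries. At 7 dpa 76 became 18 to 72 (left out), the lowest again without A. From 1 to 3 dpa 0 became 2 (that pair dropped) and 8 (without the 5). From 3 to 7 dpa 1 became 2 (no filter), 7 (DESeq2, 5 lower and 2 higher), 4 (without the 5), 0 (libraries compared) and 0 to 1 (left out). Jointly 66 became 103 (without the 5) and 7 to 62 (left out). For the share of L, 0 pairs became 3 jointly and 2 at 7 dpa without the 5, and 1 at 7 dpa when only 90 mpa C and 7 dpa C were dropped. With libraries left out, the median log2 fold change ranged from -0.58 to -0.080 at 60 mpa, -0.69 to -0.26 at 3 hpa and -1.30 to -1.10 at 3 dpa. Fits without libraries have fewer samples; the cause of the other shifts was not tested. Depth limits the genes under 10 CPM and all values of 7 dpa C.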
